A study of Mus musculus with 11 samples.

Results

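Open chromatin was described around 9 genes for transcription factors that mark neurons lying near midbrain dopaminergic (DA) and hindbrain serotonergic (5-HT) neurons: Isl1 and Isl2, Pou4f1, Phox2a and Tlx3, Lhx1, Lhx5 and Tal1, and Lhx9. The genes were picked by name for these neighbouring cell types, and they are 9 of the 22225 protein-coding genes of the annotation. Every deposited region that overlapped a gene body, extended by 20 kb on each side, was taken, which gave 64 of 131942 regions in windows that add up to 447 kb of the mm9 genome.

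Factors of this kind are made in restricted sets of newborn neurons, where they bind DNA and switch on the genes of a given neuronal type. LIM homeodomain proteins such as Isl1, Isl2, Lhx1, Lhx5 and Lhx9 act in combinations through shared cofactors of the Ldb family, and Tal1 is a basic helix-loop-helix protein that pairs with E proteins such as Tcf3. In the brain stem, each of them is best known outside DA and 5-HT neurons, for example in cranial motor neurons (Isl1), the red nucleus (Pou4f1) or the locus coeruleus (Phox2a).

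ATAC-seq, in which a transposase cuts accessible DNA, was carried out on sorted cells of mouse embryos at E14.5. The 3 DA libraries come from GFP+ cells of the ventral mesencephalon of TH-GFP embryos, in which a rat Th promoter drives GFP. The 2 5-HT libraries come from YFP+ cells of hindbrain rhombomeres of embryos with a Cre transgene and ROSA YFP, in which YFP marks cells where Cre has acted and their progeny. The study takes these as 5-HT neurons, since nearly all sorted YFP+ cells, and a minority of YFP- cells, stained for the serotonin-making enzyme Tph2. It also found Tph2 mRNA enriched in YFP+ cells, and expression of DA and GABAergic genes in them. Most of its sorted GFP+ cells stained for Th, and it proposes a slight contamination of them by GABAergic neurons. In both groups, transgenic males had been mated with Swiss wild-type females, the TH-GFP line was kept on C57BL/6J, and each library is a separate sort of tissue pooled from several embryos. The number of peaks was 52861, 93055 and 94351 in the DA libraries, given here and below in the order of replicates 1, 2 and 3, and it was lower in the 5-HT libraries, at 38772 and 22879 (replicates 1 and 2). Their read depth is unknown. Scores of different libraries have no common scale, so each score is given as its percentile among the peaks of its own library, with 0 for no peak. A percentile depends on the length of the list, since an equal rank from the top gives a higher percentile in a library with more peaks, as the DA libraries have. A percentile that is higher in DA than in 5-HT libraries need therefore not be a higher rank, and for many regions with peaks in both groups the rank of the peak from the top of its library is given as well, a scale chosen after the values were seen, on which a smaller number is a higher rank. A rank has a limit of its own, since it cannot exceed the number of peaks in its library. A peak of 5-HT replicate 2 thus lies above every DA peak with a rank beyond 22879, and a peak of 5-HT replicate 1 above every DA peak with one beyond 38772, wherever it stands in its own list. Percentiles therefore favour the longer DA lists and ranks the shorter 5-HT lists, and a difference found on one scale alone rests on that scale. In sorted bulk cells, fewer cells with an open region and less accessibility per cell cannot be told apart.

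The sorted cells were first checked against marker promoters, where a promoter runs from 1 kb upstream to 100 bp downstream of any TSS of a gene. Of 8 DA markers, 8 had a promoter peak in all 3 DA libraries and 8 had higher percentiles in every DA library than in both 5-HT libraries. By rank, 4 of the 8 lay above both 5-HT libraries in every DA library (Th, Pitx3, Lmx1a and Aldh1a1), and 4 overlapped. At the promoter of the dopamine transporter gene Slc6a3, the percentiles were 73.0, 56.1 and 58.8 in the DA libraries and 11.2 and 0 in the 5-HT libraries. By rank it is among those that overlapped, with 5-HT replicate 1 (34417) below DA replicate 1 (14269) and above DA replicates 2 (40839) and 3 (38827), whose ranks lie beyond the list of 5-HT replicate 1. The 5-HT markers differed among themselves. The promoter of Tph2, which makes the serotonin precursor, had percentiles of 90.5, 80.9 and 95.2 in the DA libraries and 87.5 and 46.0 in the 5-HT libraries, with ranks of 5030, 17812 and 4538 and of 4844 and 12362, which overlap. The serotonin transporter gene Slc6a4 had no promoter peak in either 5-HT library and percentiles of 43.8, 74.4 and 43.5 in the DA libraries, and Fev, a determinant of 5-HT neurons, had a promoter peak only in 5-HT replicate 1 (30.1). The promoter of Gata3, a factor of 5-HT neurons, had 73.6, 51.5 and 61.7 in the DA libraries and 65.1 and 95.5 in the 5-HT libraries, and by rank it was higher in both 5-HT libraries than in every DA library. Of 6 5-HT markers, each DA library had a promoter peak at 5, 5-HT replicate 1 at 4 and 5-HT replicate 2 at 2. All DA percentiles lay above both 5-HT percentiles at 3 of the 6 (Slc6a4, Lmx1b and Maob) and the reverse at 0, and by rank the counts were 2 (Slc6a4 and Maob) and 1 (Gata3).

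Over the 9 windows, a peak was found in 26, 50 and 40 of the 64 regions for the DA libraries, against 28 and 11 for the 5-HT libraries. The counts of the groups overlapped, since 5-HT replicate 1 lay above DA replicate 1. The mean was 19.2 regions higher in DA than in 5-HT libraries, or 10.7 without 5-HT replicate 2, and the libraries also differ in their number of peaks. As shares of the window regions these are 40.6%, 78.1% and 62.5% for DA and 43.8% and 17.2% for 5-HT, against 40.1%, 70.5%, 71.5%, 29.4% and 17.3% of all regions in the same order. 5-HT replicate 1 thus had a peak in the windows 1.49 times as often as over all regions, and the other libraries between 0.874 and 1.11 times. The covered length was 24706, 36466 and 33197 bp in the DA libraries and 25711 and 11515 bp in the 5-HT libraries.

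A peak was present in all 3 DA libraries at 22 of the 64 regions, against 34.6% of all regions, and in both 5-HT libraries at 9, against 14.3%. The same 9 had a peak in all 5 libraries (12.8% of all regions). They were the promoter regions of Isl1, Isl2, Lhx1 and Tal1, a Tal1 exon and a region downstream of it, and the promoters of Aatf and 2310009B15Rik and an intron of Inppl1, which are neighbours of Lhx1, Lhx9 and Phox2a. Regions with a peak in all 3 DA and neither 5-HT library, called DA-specific, numbered 3, in the windows of Pou4f1 (1) and Lhx9 (2), against 13.4% of all regions. No window held a region with a peak in both 5-HT and no DA library (0 of 64, against 0.389% of all regions). Among regions with a peak in all 3 DA libraries, 13.6% were DA-specific in the windows and 38.6% genome-wide. These counts rest in part on single libraries. Omitting DA replicate 1 gave 10 DA-specific regions, and omitting 5-HT replicate 1 gave 11. With 5-HT replicate 2 left out there were 5, and 5-HT replicate 1 by itself had a peak in 28 regions, 17 of them with a peak in every DA library and 5 with one in no DA library. Counting regions with a peak in any library, the windows were densely filled, with a median of 1.36 regions per 10 kb over the 9 genes (1.05 to 2.02) and of 0.592 over protein-coding genes. For peaks in all 3 DA, both 5-HT or all 5 libraries, the median number of regions per window was 2.00, 1.00 and 1.00. These medians, not adjusted for window length, were the same for the 9 genes and for protein-coding genes.

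The difference in the number of window regions turned round when the libraries were compared at 22879 peaks each, those with the highest scores, which is the peak number of 5-HT replicate 2. That library keeps its whole list at this number, and the others only their highest peaks. Each DA library then had a peak in 7 of the 64 regions (10.9%), 5-HT replicate 1 in 16 (25.0%) and 5-HT replicate 2 in 11 (17.2%), against 17.3% of all regions in every library, and the difference of means was -6.50 regions. The counts were 5 regions with a peak in all 3 DA libraries (12.7% of all regions), 7 with one in both 5-HT libraries (11.8%), 2 with one in all 5 (8.34%), 0 DA-specific (2.14%) and 4 with a peak in both 5-HT and no DA library (1.79%). Those 4 were the promoter regions of Isl1, Lhx1 and Tal1 and a region downstream of Tal1. Each of them had a peak in every library before the limit was set, so they differ by rank and not by presence.

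**Figure D1:**
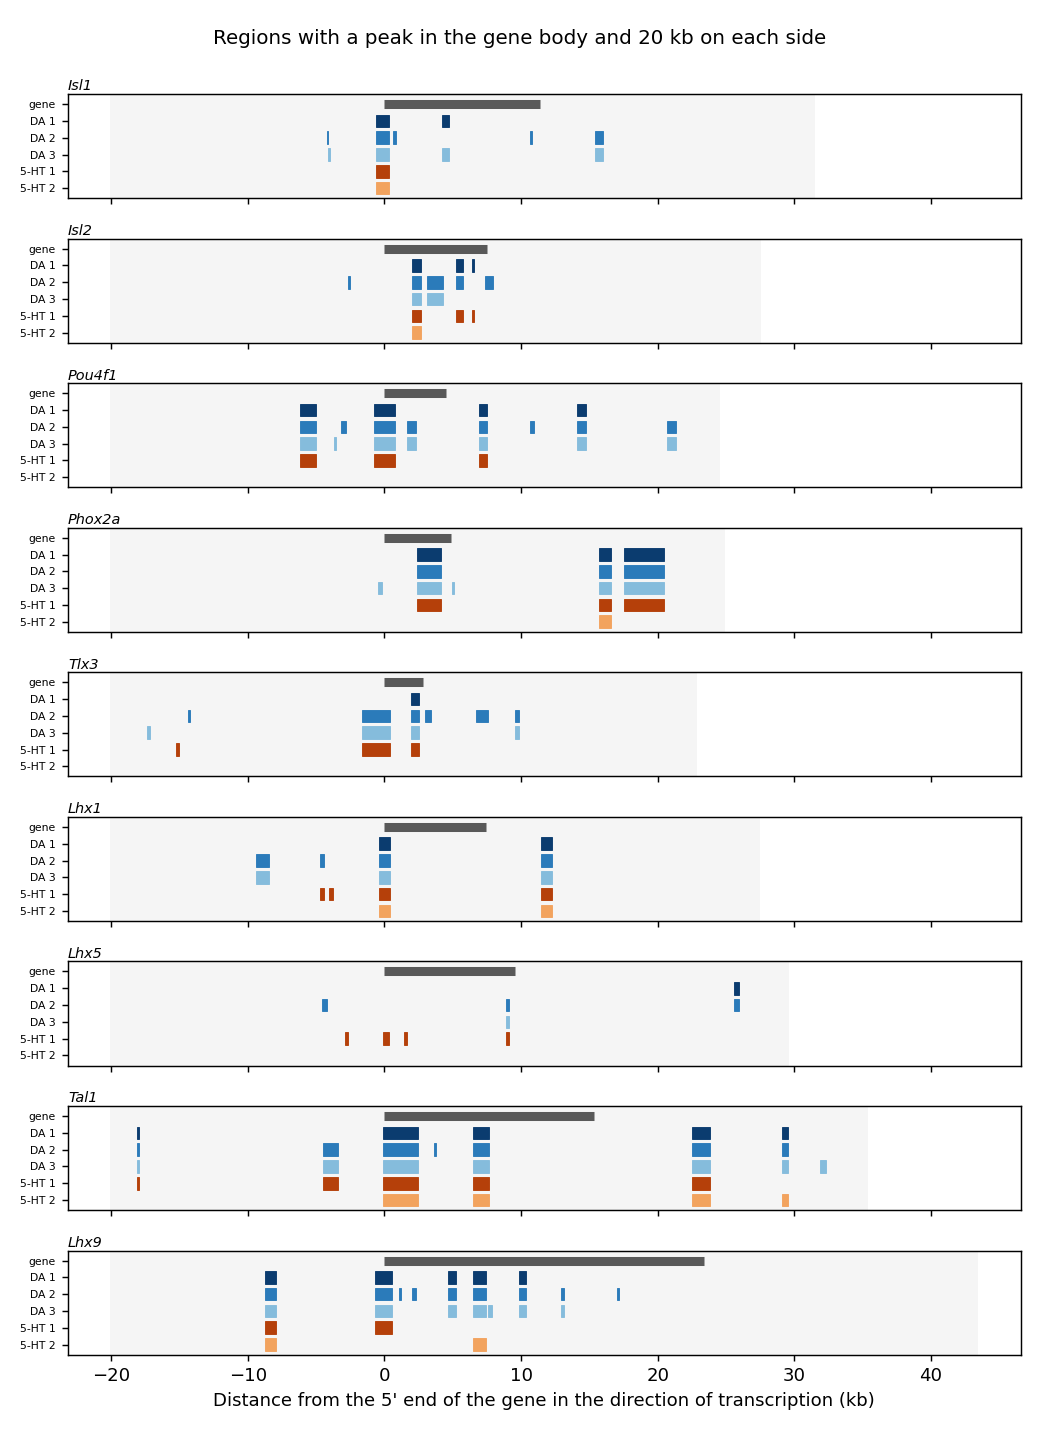
Regions with a peak in each library along the 9 windows, with the distance from the 5′ end of the gene in kb on the horizontal axis, a row for each library and the gene body as a grey bar. Shading marks the window, and 9 of the 64 regions hold a peak in all 5 libraries.

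At promoters, 4 of the 9 genes had a peak in all 5 libraries (Isl1, Isl2, Lhx1 and Tal1), against 48.5% of protein-coding genes. None of the 9 had a promoter peak in all 3 DA libraries and neither 5-HT library, a pattern found at 1.99% of protein-coding genes, and 0 of 9 lacked a promoter peak in every library, against 34.8%. The median over the 9 genes of the mean DA percentile was 36.4, below the 60.3 over all protein-coding genes, and that of the mean 5-HT percentile was 30.4, against 25.8. Of the 9, only Pou4f1 had all DA percentiles above both 5-HT percentiles, as do 34.7% of protein-coding genes. By rank, 0 of the 9 did (9.57% of protein-coding genes), and 3 had both 5-HT ranks above all DA ranks (Isl1, Lhx1 and Tal1, against 10.9%, or 22.0% of those whose promoter region has a peak in all 5 libraries), where percentiles gave 0. At these 3, every DA rank lies beyond the 22879 peaks of 5-HT replicate 2 (8.42% of genes with such a region), so that the place of this library above them is fixed by the length of its list. 5-HT replicate 1 lay above all DA libraries by both percentile and rank at 4 of the 9 (the same 3 and Lhx5, against 2.98% of protein-coding genes and 4.12% of those with such a region), and 5-HT replicate 2 at 0 (1.93% and 3.40%). The count for DA by percentile was 3 without DA replicate 1, 2 without DA replicate 2, 4 if 5-HT replicate 1 was omitted and 2 if 5-HT replicate 2 was omitted. That for 5-HT was 1 if DA replicate 3 was omitted and 4 if 5-HT replicate 2 was. Without 5-HT replicate 1, 2 genes had a promoter peak in all 3 DA and not in the remaining 5-HT library (Pou4f1 and Lhx9), and 1 had no promoter peak (Lhx5). Without DA replicate 3, 1 gene had no promoter peak (Phox2a). In a two-sided exact permutation test on the difference of mean percentiles, 3 against 2 libraries cannot go below p = 0.1, so the p-values are given as descriptions, unadjusted. They compare percentiles over lists of unequal length, unless they are said to be at equal numbers of peaks.

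**Figure D2:**
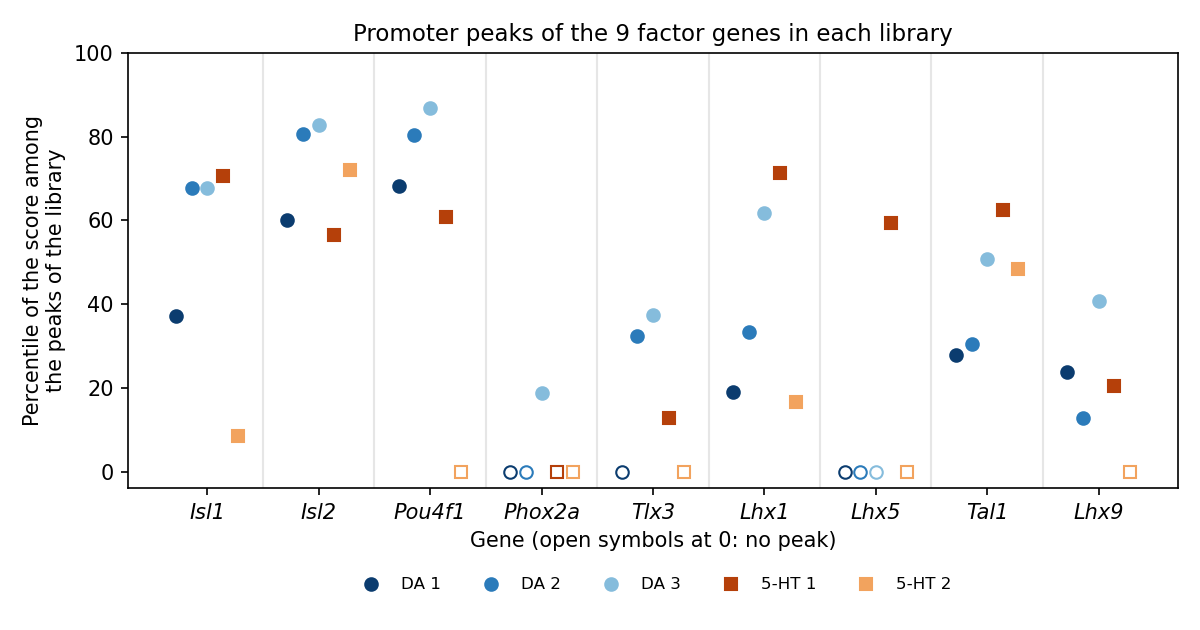
Percentile of the promoter peak among the peaks of the same library for each of the 9 genes, with circles for DA and squares for 5-HT libraries and open symbols for no peak. Pou4f1 and Isl2 are highest in the DA libraries, and the Lhx5 promoter has a peak in 5-HT replicate 1 alone.

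Isl1 and Isl2 are LIM homeodomain genes of motor neurons. The Isl1 promoter region (chr13:117099559-117100487, around the TSS on the minus strand) had percentiles of 37.2, 67.7 and 67.7 in the DA libraries and 70.7 and 8.49 in the 5-HT libraries. The 5-HT libraries were thus the highest and the lowest, and the groups overlapped (DA 57.6 ± 17.6, SD, n = 3 and 5-HT mean 39.6, with an exact permutation p = 0.700). 5-HT replicate 1 was also above the DA libraries by rank (11357, against 33196, 30056 and 30433), whereas the rank of 5-HT replicate 2 (20937) is near the end of its list and decides nothing. All DA libraries lost this peak at equal numbers of peaks, a limit set by the list of 5-HT replicate 2. The exact permutation p was then 0.100, the smallest possible, with 5-HT higher. Elsewhere in the Isl1 window, peaks were few: no other region had a peak in a 5-HT library, and the region with the highest mean percentile outside promoters, in the gene (chr13:117095163-117095683), had 15.7 and 49.5 in DA replicates 1 and 3.

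The Isl2 promoter had the highest mean percentile over the 5 libraries among the 9 (70.4). Its region (chr9:55388522-55389176) lies at an internal TSS of Isl2 and is shared with the promoter of Gm17226. The percentiles were 60.0, 80.7 and 82.7 in the DA libraries and 56.5 and 72.0 in the 5-HT libraries, which overlap (74.5 ± 12.6, SD, n = 3, against a mean of 64.2, exact permutation p = 0.400). The ranks also overlapped, with 21147, 17933 and 16284 in the DA libraries and 16868 and 6410 in the 5-HT libraries, the highest being that of 5-HT replicate 2. At equal numbers of peaks it was the only one of the 9 promoters with a peak in all 5 libraries, against 38.2% of protein-coding genes. A coding exon further on (chr9:55391708-55392205) had 29.5 and 32.1 in DA replicates 1 and 2 and 18.1 in 5-HT replicate 1.

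Pou4f1 encodes a POU homeodomain factor of the red nucleus and of sensory neurons. Its promoter region (chr14:104866408-104867983) had percentiles of 68.2, 80.5 and 86.9 in the DA libraries. In 5-HT replicate 1 it was 60.8, and 5-HT replicate 2 had no peak there. The percentiles of the groups did not overlap, with 78.5 ± 9.52 (SD, n = 3) in DA and a mean of 30.4 in 5-HT libraries (exact permutation p = 0.100, the smallest possible), although DA replicate 1 exceeded 5-HT replicate 1 by less than the spread among the DA libraries. By rank the groups overlapped, since 5-HT replicate 1 (15213) lay above DA replicates 1 (16833) and 2 (18178) and below DA replicate 3 (12375), and at equal numbers of peaks the exact permutation p was 0.500. Among protein-coding genes with a promoter peak in the same library, 35.2%, 35.1% and 48.9% had a lower percentile in the DA libraries (32.9% for 5-HT replicate 1, with no peak in 5-HT replicate 2). 5-HT replicate 2 had no peak in any of the 9 regions of the window, and 5-HT replicate 1 had 3. The DA-specific region lay between genes, 11808 bp downstream of the nearest TSS of Pou4f1 (chr14:104852434-104853114), with percentiles of 46.9, 48.5 and 61.4, and it also had the highest mean percentile of the window outside promoters.

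Phox2a, a homeodomain gene that noradrenergic neurons require, had the weakest promoter of the 9 in the DA libraries apart from Lhx5. The only peak at its promoter (chr7:108966329-108966635) was in DA replicate 3, at a percentile of 18.8 (exact permutation p = 1.00), and without that library the promoter had none. Inside the gene, a region centred in an intron (chr7:108969219-108970951), chosen after its values were seen, had 25.0, 37.6 and 52.6 in the DA libraries and 42.2 and 0 in the 5-HT libraries. The DA ranks (39643, 58075 and 44768) all lie beyond the list of 5-HT replicate 1 (22415 there), so the order by rank is fixed by list length. The highest region outside promoters lay in an intron of the neighbour Inppl1 (chr7:108982520-108983430), with 44.7, 51.9 and 58.5 in the DA libraries and 13.2 and 14.2 in the 5-HT libraries. The DA percentiles exceeded both 5-HT percentiles. By rank, DA replicate 1 (29256) lay above 5-HT replicate 1 (33637), DA replicates 2 and 3 (44789 and 39157) lie beyond the list of that library, and 5-HT replicate 2 (19624) cannot be placed against the DA libraries, whose ranks all lie beyond its list.

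Tlx3, which specifies glutamatergic relay neurons of the hindbrain and takes part in the making of noradrenergic centres, had a promoter region (chr11:33103196-33105200, shared with Gm12116) with no peak in DA replicate 1. The percentiles were 32.4 and 37.5 in DA replicates 2 and 3, 12.8 in 5-HT replicate 1 and 0 in 5-HT replicate 2 (exact permutation p = 0.400). The ranks of DA replicates 2 (62918) and 3 (58931) lie beyond the list of 5-HT replicate 1 (33791 there). A narrower region in a coding exon (chr11:33101085-33101672) was stronger in every library with a peak, at 47.4, 66.3 and 52.2 in the DA libraries and 63.6 for 5-HT replicate 1, which had the highest rank (14123, against 27787, 31398 and 45090). As in the windows of Pou4f1 and Lhx5, 5-HT replicate 2 had no peak in any region of the window, which holds 8.

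Lhx1 and Lhx5 are closely related LIM genes of interneurons. At the Lhx1 promoter (chr11:84338495-84339335, shared with 1500016L03Rik), the percentiles were 19.1, 33.4 and 61.7 in the DA libraries and 71.3 and 16.6 in the 5-HT libraries, so that the 5-HT replicates enclosed all DA values (38.1 ± 21.7, SD, n = 3, against a mean of 43.9, exact permutation p = 0.800). 5-HT replicate 1 was above the DA libraries by rank too (11141, against 42740, 61967 and 36113). The rank of 5-HT replicate 2 (19085) lies above them only by the length of its list, in which it stands low. That length is also the limit at equal numbers of peaks, where no DA library kept the Lhx1 promoter peak. The exact permutation p was then 0.100, the smallest possible, with 5-HT higher. The other region of this window with a peak in all 5 libraries was the promoter of Aatf (chr11:84326634-84327494), which had 89.1, 94.8, 87.4, 85.9 and 82.7 and is given to that gene. Its ranks overlapped, with the highest in 5-HT replicate 2 (3964, against 4818 in DA replicate 2). An intron of 1500016L03Rik upstream of Lhx1 (chr11:84347375-84348305) had 61.2 and 51.0 in DA replicates 2 and 3 only.

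Lhx5 stood apart from the other 8 promoters, since its region (chr5:120881799-120882222) had a peak in 5-HT replicate 1 alone, at a percentile of 59.5 (exact permutation p = 0.400). No DA peak and a peak in at least 1 5-HT library was found at 0.265% of protein-coding promoters. The call rests on a single library and is lost without it. The neighbouring regions chr5:120879015-120879256 and chr5:120883301-120883544 also had a peak in that library alone, at 28.6 and 4.68, and were chosen after their values were seen. In all 9 windows, 5 regions had a peak in a 5-HT and no DA library, each in 5-HT replicate 1 alone (7.81%, against 3.47% of all regions with a peak in that library alone and 5.09% with one in any 5-HT and no DA library), and 3 of them lay in this window. In the 3′ UTR of Lhx5, a region of 212 bp (chr5:120890809-120891020) had 87.2 and 83.8 in DA replicates 2 and 3, 66.0 in 5-HT replicate 1 and none in the remaining libraries, and the rank of 5-HT replicate 1 (13168) lay between those of the 2 DA peaks (11919 and 15318).

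Tal1 is a factor of GABAergic neurons in the midbrain and hindbrain, and of blood cells and endothelium. Its promoter region (chr4:114728926-114731474) had percentiles of 27.9, 30.6 and 50.8 in the DA libraries and 62.6 and 48.5 in the 5-HT libraries, a DA mean of 36.4 ± 12.5 (SD, n = 3) against 55.6. DA replicate 3 lay above 5-HT replicate 2, so the groups overlapped (exact permutation p = 0.300). 5-HT replicate 1 lay above every DA library by percentile and by rank (14510, against 38088, 64617 and 46420), and 5-HT replicate 2 (11772) by rank alone, where all DA ranks lie beyond its list. The DA peaks are for that reason lost at equal numbers of peaks. There the exact permutation p was 0.100, the smallest possible, with 5-HT higher. Among protein-coding promoters with a peak in all 5 libraries, 1.85%, 0.204% and 1.59% had a lower percentile in the DA libraries, against 25.1% and 27.1% in the 5-HT libraries.

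With 8 regions, 3 of them open in all 5 libraries, the Tal1 window had the most such regions of the 9. A region centred in a coding exon (chr4:114735537-114736704) had 60.6, 74.7 and 73.6 in the DA and 37.4 and 24.3 in the 5-HT libraries, and by rank 5-HT replicate 1 (24285) lay among the DA libraries (20836, 23537 and 24914). The rank of 17319 for 5-HT replicate 2 is low in a list that ends before the ranks of DA replicates 2 and 3. An intergenic region downstream of the gene, 20095 bp from the nearest TSS (chr4:114751537-114752880), had 50.1, 68.9 and 70.5 in the DA libraries and 84.4 and 59.4 in the 5-HT libraries. The percentiles of the groups overlap, and 5-HT replicate 1 was highest by percentile and by rank (6068, against 26358, 28980 and 27835 in the DA libraries, all beyond the list of 5-HT replicate 2, where the rank was 9299). Further downstream, chr4:114758103-114758599 had 70.3, 78.2 and 81.9 in the DA libraries and 0 and 41.7 in the 5-HT libraries. Its ranks overlapped, with 5-HT replicate 2 highest (13329, against 15720, 20268 and 17035 in the DA libraries). A narrow region of 162 bp in a coding exon of the neighbour Stil (chr4:114710940-114711101) had the highest DA percentiles of all 64 regions, at 89.7, 96.5 and 90.2, with 56.0 in 5-HT replicate 1, and its DA ranks (5459, 3299 and 9221) also lay above that of 5-HT replicate 1 (17066). The exon, far downstream and Stil regions were named after their values were seen.

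The markers of other cells that carry Tal1 were looked up beside it. The erythroid markers Gata1, Klf1 and Epor had no promoter peak in any library, which leaves out part of the erythroid list. Of 4 endothelial markers, 3 had a peak in all 3 DA libraries and in 5-HT replicate 1, Pecam1 had none, and Cldn5 was highest. Their summed percentiles were 97.0, 133 and 165 in the DA libraries and 139 and 0 in the 5-HT libraries. Their part in the Tal1 values was not tested.

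Lhx9 marks commissural and other glutamatergic neurons. Its main promoter region (chr1:140744578-140745848) was weak, with percentiles of 23.8, 12.8 and 40.7 in the DA libraries and 20.4 and 0 in the 5-HT libraries (exact permutation p = 0.400). The DA ranks (40293, 81135 and 55994) all lie beyond the list of 5-HT replicate 1 (30873 there). A region in an intron that reaches an internal promoter of the gene (chr1:140739944-140740518) was DA-specific, with 67.6, 56.5 and 55.6, and the other DA-specific region, in a coding exon (chr1:140734820-140735290), had 5.35, 18.7 and 50.4 and was chosen after its values were seen. Between them, chr1:140737716-140738681 had 22.7, 56.8 and 51.1 in the DA libraries and 0 and 46.4 in the 5-HT libraries, and the DA ranks (40888, 40190 and 46103) all lie beyond the list of 5-HT replicate 2 (12256 there). At the DA-specific intron, every DA percentile exceeded that of the main promoter in the same library.

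In the order of mean DA percentile, the promoters ran from Pou4f1 (78.5) and Isl2 (74.5) through Isl1 (57.6), Lhx1 (38.1), Tal1 (36.4), Lhx9 (25.7) and Tlx3 (23.3) to Phox2a (6.27) and Lhx5 (0). Each pair of neighbours in this order differed by less than the larger of their SDs, which run up to 21.7 for Lhx1 (n = 3). In the 5-HT libraries the order began with Isl2 (64.2) and Tal1 (55.6) and ended with Phox2a (0). At equal numbers of peaks, 3 of the 9 promoters had a peak in both 5-HT and no DA library (Isl1, Lhx1 and Tal1), against 2.26% of protein-coding genes, and each of the 3 had DA peaks of lower rank.

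5-HT replicate 1 had a promoter peak at 8 of the 9 genes and 5-HT replicate 2 at 4, against 58.3% and 49.6% of protein-coding genes, and the DA libraries at 6, 7 and 8, against 59.9%, 63.7% and 62.1%. Of the 64 regions, 19 had a peak in 5-HT replicate 1 and not in 5-HT replicate 2 (29.7%, against 15.1% of all regions), and 2 the reverse (3.12%, against 3.07%). Marker lists of other cells also differed between the 5-HT replicates. Of 7 GABAergic markers, 4 had a promoter peak in all 3 DA and 2 in both 5-HT libraries, and the summed percentiles were 160, 218 and 218 in the DA libraries and 200 and 62.2 in the 5-HT libraries, with Gad2 highest and Helt at 0. Of 5 glial and progenitor markers, 4 and 3 had such peaks, and the sums were 228, 284 and 346 against 295 and 155, with Gfap highest and none of the 5 at 0 in every library. At equal numbers of peaks, 2 of the 5 (Olig2 and Sox9) and 2 of the 7 GABAergic markers (Gad1 and Gad2) had a peak in both 5-HT and no DA library. Their part in the values of the 9 factors was not tested.

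The lists below mark other cells, among them those in which the factors are best known. Of 7 motor neuron markers in the annotation, 4 had a peak in all 3 DA and 2 in both 5-HT libraries, and Chat, Lhx3 and Prph had none. Of 5 noradrenergic markers, 1 had a peak in all 3 DA libraries (Hand2) and 0 in a 5-HT library, and Dbh and Tfap2b had none. Of 5 glutamatergic markers, 2 had a peak in all 3 DA and 1 in both 5-HT libraries, with Slc17a6 highest and Slc17a7 and Barhl1 at 0. Of 3 pericyte markers, Pdgfrb had a peak in DA replicates 2 and 3 (45.2 and 12.9), Rgs5 in DA replicate 2 (20.2) and Cspg4 in none, and 0 had one in a 5-HT library. Of 3 microglial markers, 3 had no peak in any library.

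Relatives and partners of the factors were set beside the 9, of which 6 had a promoter peak in all 3 DA and 4 in both 5-HT libraries, against 59.0% and 48.8% of protein-coding genes. Of 12 relatives, of which Lhx3, Lhx4 and Tal2, among others, are also on a marker list, 7 had a promoter peak in all 3 DA libraries, 3 in both 5-HT libraries and 4 in none, with a median DA mean percentile of 30.8. Of the 14 partners of LIM and Tal factors, 13 had a peak in all 3 DA libraries and 10 in both 5-HT libraries, with a median of 78.0. Lmo4, a LIM-only cofactor, had 88.5, 93.7 and 95.0 in the DA libraries and 82.9 and 90.1 in the 5-HT libraries, and the E protein gene Tcf3 had 95.1, 98.8 and 99.1 and 95.4 and 93.4. The ranks of both overlapped between the groups.

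By Euclidean distance over the 5 promoter percentiles, the gene of these lists most like Pou4f1 was Lmo3 (4.65 percentile points), followed by Lmx1b (16.7). Isl1 was nearest to Lmo2 (17.5) and Cldn5 (22.5), Isl2 to Runx1t1 (17.7) and En1 (25.8), and Phox2a to Sox14 (20.3). Tlx3 was nearest to Lhx6 (17.3) and Slc17a8 (21.3), and Lhx9 to Maob (23.3) and Lhx4 (24.2). For Lhx5 the nearest were Gata2 (18.3) and Fev (29.4), both with a peak in 5-HT replicate 1 and not in 5-HT replicate 2. The distances were larger for Lhx1, with Flt1 (31.7) and Slc5a7 (35.4), and for Tal1, with Gad2 (36.2) and Gad1 (36.3). Each gene was compared over 5 libraries with the 58 others that had a promoter peak in at least 1 library. Listed genes with no promoter peak in any library were left out. Phox2a has a peak in DA replicate 3 alone, at 18.8, so it lies nearer to those genes than to Sox14.

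The central 300 bases are given for some of the named regions outside exons. These are the region downstream of Pou4f1 and the Lhx9 intron, both DA-specific. The others are the Inppl1 intron in the Phox2a window and the intergenic region downstream of Tal1, both with a peak in all 5 libraries. The bases are read from the plus strand of mm9. Capitals mark the words TAATTA (read by homeodomains), CAGATG (an E-box of Tal1 dimers), AGATAA (read by Gata factors) and CANNTG (any E-box), searched on both strands. Every match to the Tal1 word is by its letters also a match to the general E-box word.
Pou4f1 downstream, chr14:104852625-104852924: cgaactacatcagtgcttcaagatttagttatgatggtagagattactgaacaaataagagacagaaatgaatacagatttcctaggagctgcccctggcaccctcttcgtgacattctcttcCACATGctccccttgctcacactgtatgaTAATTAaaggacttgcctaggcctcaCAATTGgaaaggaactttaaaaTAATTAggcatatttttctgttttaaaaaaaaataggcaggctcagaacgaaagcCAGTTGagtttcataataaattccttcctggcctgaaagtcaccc
Lhx9 intron, chr1:140740082-140740381: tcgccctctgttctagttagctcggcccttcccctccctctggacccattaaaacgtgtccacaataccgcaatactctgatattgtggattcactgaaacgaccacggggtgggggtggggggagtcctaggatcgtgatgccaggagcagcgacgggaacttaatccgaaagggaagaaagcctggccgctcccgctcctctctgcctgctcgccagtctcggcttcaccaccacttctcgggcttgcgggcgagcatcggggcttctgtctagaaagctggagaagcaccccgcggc
Inppl1 intron in the Phox2a window, chr7:108982826-108983125: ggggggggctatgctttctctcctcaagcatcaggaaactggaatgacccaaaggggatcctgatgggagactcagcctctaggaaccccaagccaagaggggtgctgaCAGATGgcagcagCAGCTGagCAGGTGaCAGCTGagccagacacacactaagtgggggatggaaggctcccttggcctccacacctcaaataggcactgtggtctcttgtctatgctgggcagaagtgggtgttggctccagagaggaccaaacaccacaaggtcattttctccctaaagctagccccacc
Tal1 downstream, chr4:114752059-114752358: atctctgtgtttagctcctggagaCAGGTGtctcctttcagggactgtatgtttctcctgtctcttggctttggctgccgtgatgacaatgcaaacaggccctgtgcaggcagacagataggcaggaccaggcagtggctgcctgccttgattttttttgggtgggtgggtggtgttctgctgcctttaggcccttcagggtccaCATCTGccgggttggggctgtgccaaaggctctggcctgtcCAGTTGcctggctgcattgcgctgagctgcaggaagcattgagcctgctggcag

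The Pou4f1 region held TAATTA 2 times and CANNTG 3 times, and the Lhx9 region held none of the 4 words. The Inppl1 region held CAGATG 1 time among 4 CANNTG, and the Tal1 region 1 time among 3. In windows of the same length over all regions, TAATTA occurred in 9.28%, CAGATG in 27.0%, AGATAA in 13.9% and CANNTG in 82.7%. In the 64 regions of the 9 windows the shares were 7.81%, 18.8%, 7.81% and 76.6%. A word is a match of letters and not a bound site.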

How the data were processed

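For each ATAC-seq library, the authors trimmed reads (Trimmomatic, FastQC), aligned them to mm9 (Bowtie2), removed duplicates (Picard), called peaks (MACS2) and merged near ones (BEDOPS), and their notes also name HOMER. Versions are not given in the sources used here. The deposited score of each library is 0 where a region has no peak, and its scale is not named. Of 131942 regions, 1 has a misspelled chromosome name, which was corrected. Windows, promoters and lists used GENCODE M1 (NCBIM37, the same assembly as mm9), and overlap meant at least 1 bp. Promoter percentiles were compared by two-sided exact permutation tests. Tfap2b was matched by an older symbol, and Slc18a3 was not analysed here. The driver of the Cre transgene is not reported here.

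Named were the 9 genes, the promoter region of each (most libraries, then highest mean percentile), the highest region outside promoters, DA-specific regions with the highest lowest percentile, and up to 2 nearest genes of the lists (relatives, partners and markers of DA, 5-HT, noradrenergic, motor, GABAergic, glutamatergic, erythroid, endothelial, pericyte, glial and microglial cells). The genes and lists were chosen with earlier results of these data known. Python 3.11.15, NumPy 2.4.6, pandas 2.3.3 and matplotlib 3.10.9 were used, tested on simulated data. RNA-seq was not analysed here.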

Additional observations from a re-analysis of the deposited data

How the results depend on the processing

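Of 72 values under other settings, 47 kept within 1.5 times the main count or within the spread between libraries, 23 moved and 2 turned round. In the order of regions with a peak in all 3 DA libraries, in both 5-HT libraries, in all 5 libraries, DA-specific, and in both 5-HT and no DA library (22, 9, 9, 3 and 0), equal numbers of peaks gave 5, 7, 2, 0 and 4, the 10000 highest peaks of each library gave 1, 2, 0, 1 and 1, and peaks at or above the library's median score gave 8, 3, 3, 3 and 0. Windows of 5 kb gave 14 regions with a peak in all 3 DA libraries. The difference in the mean number of regions, 19.2, became -6.50 at equal numbers and -0.833 with 10000 peaks.

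Genes with a promoter peak in all 5 libraries (4) numbered 1 at equal numbers, 0 with 10000 peaks and 1 above the median score. Genes with no promoter peak in any library (0) numbered 2, 8 and 2 in the same order, and 1 when the centre of the region had to lie in the promoter. A promoter peak in all 3 DA and neither 5-HT library (0) was found for 1 gene above the median score. Ranks in place of percentiles, chosen after seeing the data, gave 0 genes with all DA values above both 5-HT values (1) and 3 with the reverse (0), since a percentile rises with the number of peaks at a given rank. A rank in turn cannot exceed the number of peaks, and at those 3 genes the DA ranks all lie beyond the list of 5-HT replicate 2. The other settings named so far in this section keep fewer peaks or regions by construction, and beyond that the cause was not tested.

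Without each library in turn, regions with a peak in all 3 DA libraries ranged from 22 to 32, in both 5-HT libraries from 9 to 28, in all 5 from 9 to 17, DA-specific from 4 to 11, and in both 5-HT and no DA library from 0 to 5. Genes with a promoter peak in all 5 libraries ranged from 4 to 6, in all 3 DA and neither 5-HT library from 0 to 2, and in no library from 0 to 1, genes with all DA percentiles above both 5-HT percentiles from 1 to 4, those with the reverse from 0 to 4, and the difference of means ranged from 10.7 to 27.7. Leaving out 5-HT replicate 2 gave the 28, the 17, the 5 and the 10.7 and raised the DA-specific regions to 5. Leaving out DA replicate 1 gave 10 DA-specific regions. Leaving out 5-HT replicate 1 gave the 11 and the 2, and 1 gene without a promoter peak, as did leaving out DA replicate 3.

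Libraries of the 2 groups share only a replicate number. The replicate block, the mean difference within numbers 1 and 2, gave 18.5 regions, and the difference between DA replicates 1 and 2 had a Pearson r of -0.0161 with that between 5-HT replicates 1 and 2, in percentiles over 131942 regions that are not independent. Peak number limits what can be compared, since read depth is unknown.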

Other observations

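The central 300 bases of the 64 regions had a median GC content of 56.7%, against 48.3% over all regions with such a window. Of the 64 regions, 27 had a peak in a single library (42.2%, against 44.5% of all regions), and DA replicate 2 alone accounted for 15 of these (55.6%, against 39.1% of all such regions).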
